A study of Mus musculus with 6 samples.

Results

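Sox transcription factors were followed in kidneys, taken whole from mouse pups on postnatal day 3. The members were the 10 genes Sox4, Sox5, Sox6, Sox8, Sox9, Sox11, Sox12, Sox13, Sox17 and Sox18, each matched by its symbol to 1 row of a table of 23669 gene rows. The table has 9 other Sox rows. The study compared 3 samples of wild type with 3 of R26NICD2/+Kspcre, for which NICD2 stands below. The R26NICD2 allele places the intracellular domain of Notch2, the active fragment of that receptor, at the Rosa26 locus, and Kspcre expresses Cre from the Ksp-cadherin (Cdh16) promoter, which is used by kidney tubule epithelium. Whole-kidney RNA comes from glomeruli, vessels and stroma as well as tubules. The labels name no further allele or treatment in either group and leave unsaid whether a group's 3 samples were separate animals. The p-values then measure only the spread among samples, some of which may be technical. Adrenal genes in both groups and Y-linked genes in NICD2, given below, differed within the group. The samples of a group were therefore not all repeats of the same RNA.

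Sox proteins are transcription factors that bind and bend DNA through an HMG box, a domain first known from the sex-determining protein Sry. They are sorted into lettered subgroups whose members are alike in sequence and often replace each other in the same cells. In the developing kidney, SoxC genes (Sox4, Sox11, Sox12) are known from nephron progenitors and young tubules, and SoxE genes (Sox8, Sox9) from the tips of the ureteric tree, where they act in Ret signalling, and Sox9 from repairing tubules. SoxF genes (Sox17, Sox18) are known from endothelium, and SoxD genes (Sox5, Sox6, Sox13), which lack an activation domain of their own, from cartilage, muscle and blood cells, with Sox6 also in renin cells.

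Levels are the authors' FPKM, in which fragments are divided by transcript length and by the mapped total. Gene positions are those of the deposited table, on GRCm38. Each pair of levels is wild type and then NICD2, as mean ± SD (n = 3 per group). Fold changes are differences of mean log2(FPKM + 1), NICD2 minus wild type, ± SE, from limma over all 13765 genes that reached 1 FPKM in 3 or more libraries. This scale understates changes of low genes. A gene counts as changed where the Benjamini-Hochberg adjusted p over all of these genes is under 0.05.

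The SoxC subgroup held the member that passed the test, and its promoters are shown for that reason. RefSeq promoter entries (build GRCm38.p6) existed for 7 of the 10 genes. Each runs from 250 bases before to 50 after the annotated start, 5′ to 3′ on the gene's strand. Capitals mark matches to TGGGAA, the core of the motif of Rbpj, the DNA-binding partner of active Notch.

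Sox12, chr2:152397997-152398296, minus strand: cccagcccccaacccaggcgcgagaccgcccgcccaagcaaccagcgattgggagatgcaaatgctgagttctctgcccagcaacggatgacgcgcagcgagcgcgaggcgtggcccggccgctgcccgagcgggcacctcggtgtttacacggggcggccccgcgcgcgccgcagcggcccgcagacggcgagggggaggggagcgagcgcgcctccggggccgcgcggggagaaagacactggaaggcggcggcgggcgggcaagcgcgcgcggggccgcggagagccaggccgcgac
Sox11, chr12:27342669-27342968, minus strand: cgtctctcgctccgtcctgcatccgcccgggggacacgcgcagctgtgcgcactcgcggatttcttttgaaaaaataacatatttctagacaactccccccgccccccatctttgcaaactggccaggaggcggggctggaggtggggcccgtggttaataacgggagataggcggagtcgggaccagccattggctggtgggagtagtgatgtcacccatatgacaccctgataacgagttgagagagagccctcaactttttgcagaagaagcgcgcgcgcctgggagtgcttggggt
Sox4, chr13:28953650-28953949, minus strand: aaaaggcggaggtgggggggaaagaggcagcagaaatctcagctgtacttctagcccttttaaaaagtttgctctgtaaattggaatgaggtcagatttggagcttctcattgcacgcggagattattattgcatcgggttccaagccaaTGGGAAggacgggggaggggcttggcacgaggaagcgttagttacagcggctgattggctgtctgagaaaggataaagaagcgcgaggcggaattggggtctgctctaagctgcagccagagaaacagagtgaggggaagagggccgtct

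The Sox12 promoter had a GC content of 76.7%, that of Sox11 58.7% and that of Sox4 52%, beside a median of 52.7% over 32851 promoters. Searched on both strands, TGGGAA matched once in the Sox4 promoter, 100 bases before the start, and not in those of Sox12 and Sox11. It matched in 25.6% of all promoters. The longer GTGGGAA, which contains TGGGAA, was in 6.38% of all promoters and in none of the entries for the 7 genes. AACAAT, a core that Sox proteins bind, was in 10.7% of all promoters. Among the members it matched only in 1 of the 6 Sox6 entries, at 2 places. Sox13 had 1 TGGGAA match, and the entries of Sox5 and Sox8 had none of these motifs. A match is a run of letters and not a shown binding site.

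The library check came first. The row the table names Notch2_human held 0, 0.03 and 0.03 FPKM in wild type and 75.4, 79.6 and 60.2 FPKM in NICD2, while mouse Notch2 ranged from 15.3 to 18 FPKM over all 6. The Cre-driver gene Cdh16 was at 257, 296 and 269 FPKM in wild type and at 248, 214 and 247 FPKM in NICD2. The labelled kidney epithelium was thus present in every library. Each NICD2 value of Cdh16 was below each wild type value, as for 15.5% of all tested genes. The part of this lower level in the Sox values was not tested. Of the list of Notch targets, 8 of 9 tested members rose and none fell. Markers of the adrenal gland, which lies on the kidney, did not follow the genotype. Their summed level over 11 genes was 6.33 FPKM in wild type replicate 3 and 2.54 FPKM in NICD2 replicate 1, and 199 to 210 FPKM in the other 4 libraries. The former 2 are called the low-adrenal libraries. None of the 10 tested adrenal genes was called by limma, and 0 had an unadjusted p under 0.05. The Y-linked genes Ddx3y, Uty, Eif2s3y and Kdm5d were listed at 0 FPKM in NICD2 replicate 3 and expressed in the other 5 libraries. All wild type libraries expressed them, so by these genes the groups were not matched for sex. The part of sex in the Sox values was not tested. The smallest steps in FPKM put the depth of the libraries at 15600000 to 17000000 fragments.

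The Sox genes spanned a wide range of levels and kept much the same order in both genotypes. In wild type, Sox4 was the highest, at 45.5 ± 3.36 FPKM. Sox12 and Sox18 followed at 27.9 ± 1.52 and 26.7 ± 2.7 FPKM, with replicate ranges that overlapped, so their order is not beyond the spread. Sox13 came next at 19.7 ± 1.25 FPKM. Sox11 and Sox17, at 11.7 ± 1.23 and 11.5 ± 1.24 FPKM, overlapped as well. Sox6 at 4.89 ± 0.584, Sox9 at 3.7 ± 0.442 and Sox5 at 2.66 ± 0.212 FPKM were low and apart from each other. Sox8 was the lowest, at 0.62 ± 0.252 FPKM. In NICD2 the order differed at 2 places, both between neighbours with overlapping ranges there. Sox18 stood before Sox12, and Sox9 before Sox6.

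**Figure D1:**
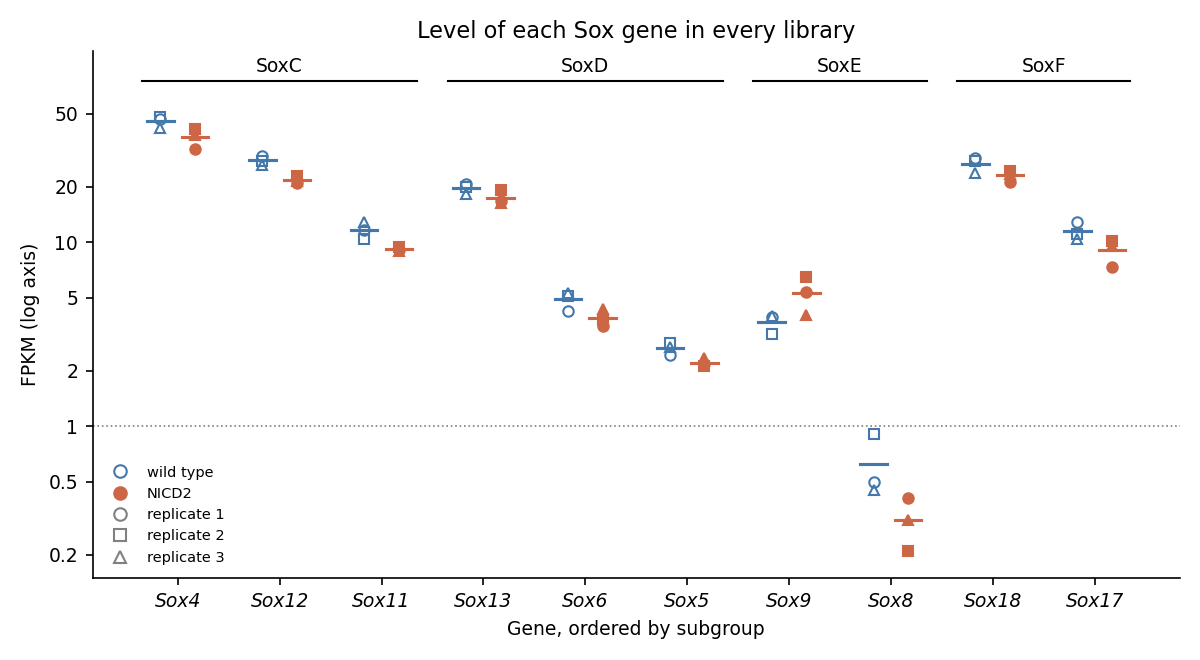
FPKM of the 10 Sox genes (log axis) in each of 3 wild type (open) and 3 NICD2 (filled) libraries, with horizontal bars at group means and marker shapes for replicate numbers. Of the genes 9 have their NICD2 mean below the wild type mean, Sox9 has it above, and Sox8 lies under the dotted line at 1 FPKM in every library.

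By subgroup, SoxC genes summed to 85 ± 3.54 FPKM in wild type, 54.9% of the total over the 10 genes, and to 68.2 ± 5.59 FPKM in NICD2, 52.6% of that total. SoxF made up 24.7% and 24.8%, SoxD 17.6% and 18.2%, and SoxE 2.79% and 4.34%. The 10 genes together summed to 155 ± 7.95 FPKM in wild type and 130 ± 10.3 FPKM in NICD2. The shares of SoxC, SoxD and SoxF differed by a few percentage points at most, while the total was lower in each NICD2 library, at 119 to 140 FPKM, than in any wild type library, at 146 to 161 FPKM.

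Of the 9 members tested, 1 was called, Sox12, against 8.79% of all 13765 genes (3.86% lower and 4.93% higher), so the members' share of 1 in 9 is near the background. Means were lower in NICD2 for 9 of the 10 members and higher for Sox9. The log2 fold change was below 0 for 8 of the 9 tested members and for 51.8% of all tested genes. Over the 9 tested, the median log2 fold change was -0.27, beside -0.01 over all tested genes, whose middle 50% lay from -0.12 to 0.11. The groups did not overlap for 6 of the 9, of which 5 were lower in NICD2, against 30.5% of all tested genes, 15.5% lower and 15% higher. An unadjusted p under 0.05 was reached by 7 of the 9 and by 25.1% of all genes. The members were chosen with results of these data known, and these counts describe them only. In whole kidneys, fewer cells of a type and less RNA per cell cannot be told apart.

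**Figure D2:**
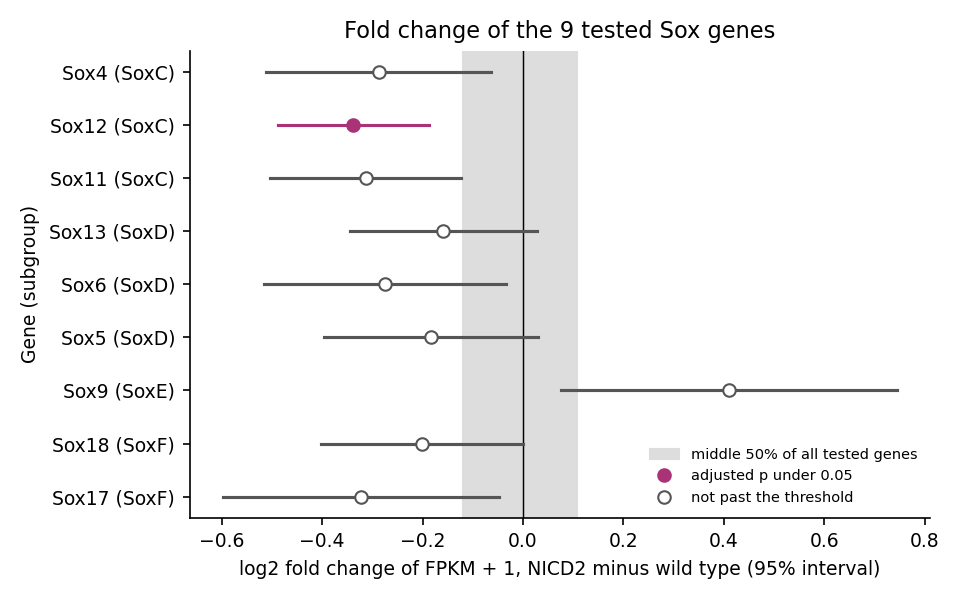
The log2 fold change of FPKM + 1, NICD2 minus wild type, with its 95% interval, for the 9 tested Sox genes, with the middle 50% of all tested genes as a grey band. Of the estimates 8 lie between -0.34 and -0.16, Sox9 lies at 0.41, and Sox12, filled, is past the threshold.

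SoxC genes encode activators that share one binding domain type and are active in progenitors and immature cells. Sox12 (gene 20667) lies on chromosome 2, 152393611 to 152398046 on GRCm38, minus strand. Its level was 29.5, 27.7 and 26.5 FPKM in the wild type libraries and 21.1, 22.8 and 21.6 FPKM in the NICD2 libraries. Each NICD2 library was below each wild type library, and the spread was small in both groups. Sox12 fell from 27.9 ± 1.52 to 21.8 ± 0.89 FPKM, with a log2 fold change of -0.34 ± 0.07 (limma, 95% interval -0.49 to -0.19, adjusted p = 0.0161). The call was lost without wild type replicate 2 (adjusted p = 0.0643), NICD2 replicate 1 (0.0684) or NICD2 replicate 3 (0.0508), at log2 fold changes from -0.34 to -0.31.

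Sox11 (gene 20666, chromosome 12, 27334268 to 27342718, minus strand) is a single-exon gene known from branching and from nerve cell development. It was at 11.6, 10.5 and 12.9 FPKM in wild type and at 9.09, 9.43 and 8.95 FPKM in NICD2. The NICD2 values lay close together and below all of wild type, whose replicates differed more. The log2 fold change was -0.31 ± 0.08 (95% interval -0.50 to -0.12), and the limma adjusted p of 0.0534 missed the threshold. It passed without wild type replicate 2 (adjusted p = 0.0494), with a filter of mean 5 FPKM (0.0478), with upper-quartile scaling (0.0482) and with the robust option (0.0407).

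Sox4, the most abundant of the 10 genes (gene 20677, chromosome 13, 28950716 to 28953682, minus strand), is known from progenitor survival. It was at 46.8, 48 and 41.7 FPKM in wild type and at 32.2, 41.2 and 38.2 FPKM in NICD2. The groups did not overlap, although the highest NICD2 library, at 41.2, nearly reached the lowest wild type one. limma gave a log2 fold change of -0.29 ± 0.10 (95% interval -0.51 to -0.06, limma adjusted p = 0.11). Without NICD2 replicate 1 it was -0.19. The long non-coding gene Gm26735 shares 2616 exonic bases with Sox4 on the opposite strand in GENCODE M21. Reads from those bases cannot be told apart without strand.

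The ratio between SoxC genes was similar in the genotypes. Sox4 stood at 1.57 to 1.73 times Sox12 in wild type and at 1.52 to 1.81 times in NICD2. Sox12 stood at 2.05 to 2.65 times Sox11 in wild type and at 2.32 to 2.42 times in NICD2. These ranges overlap, so the 3 genes kept their proportions within the spread of the libraries.

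Among 6 tested genes listed as SoxC targets, 1 fell and 0 rose (median log2 fold change -0.07). The one that fell was Mest, an imprinted gene of the mesoderm, at 184 ± 6.07 and 151 ± 8.15 FPKM (limma adjusted p = 0.0294). Leaving out wild type replicate 2, wild type replicate 3, NICD2 replicate 1 or NICD2 replicate 2 ended the call, as did leaving out both low-adrenal libraries. Tead2, a Hippo pathway transcription factor and a known Sox4 and Sox11 target, was at 61.7 ± 5.11 and 57.5 ± 3.45 FPKM (adjusted p = 0.49). Ezh2, a histone methyltransferase, was at 20.3 ± 1.2 and 20.8 ± 2.36 FPKM (adjusted p = 0.861). The actin-bundling gene Fscn1 was at 74.1 ± 9.14 and 59.2 ± 8.93 FPKM (adjusted p = 0.135).

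Among 9 tested nephron progenitor markers, 2 fell and 0 rose (median -0.29). These were Pax2 at 44.4 ± 3.84 and 32.4 ± 2.39 FPKM and Sall1 at 28.3 ± 1.98 and 20.7 ± 2.15 FPKM (limma adjusted p = 0.0124 and 0.0175). The count was 1 without wild type replicate 2, NICD2 replicate 2 or NICD2 replicate 3. Six2, which marks the progenitors themselves, was at 1.18 ± 0.284 and 0.577 ± 0.12 FPKM and was too low to be tested. The summed level of all 10 listed genes was 138 to 143 FPKM in wild type and 111 to 123 FPKM in NICD2. The estimates of Crym and Tmem100 were above 0, at 0.13 and 0.12, and that of Itga8 was -0.02. The part of these markers in the SoxC values was not tested.

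Among SoxE genes, Sox9 was the only member with a higher mean in NICD2. Sox9 (gene 20682, chromosome 11, 112782210 to 112787757, plus strand) directs cartilage formation and, in the kidney, acts at ureteric tips and in repairing tubules. It was at 3.93, 3.19 and 3.98 FPKM in wild type and at 5.4, 6.49 and 4.03 FPKM in NICD2. NICD2 replicate 3 sat just above the highest wild type library, while the other NICD2 libraries stood well above all of wild type. The estimate on the log2 scale was 0.41 ± 0.15 (95% interval 0.08 to 0.74), and the limma adjusted p of 0.124 missed the threshold. Without NICD2 replicate 3 it was 0.56 ± 0.12 (adjusted p = 0.0328), so that 1 library set the side of the threshold.

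NICD2 replicate 3 was also the lowest NICD2 library for Notch2_human, at 60.2 FPKM, and for the Notch targets Nrarp and Heyl. Nrarp, a feedback inhibitor of Notch, was at 171, 143 and 120 FPKM, and Heyl, a repressor, at 75.2, 84.3 and 59.2 FPKM. Over the 8 Notch targets that rose, NICD2 replicate 3 was the lowest NICD2 library for 4 (Nrarp, Heyl, Jag1 and Dtx1), replicate 1 for 2 (Hey2 and Notch3) and replicate 2 for 2 (Hes1 and Id4). The same library was the one with the 4 Y-linked genes at 0 FPKM. The part of either in the level of Sox9 was not tested.

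Sox8 (gene 20681, chromosome 17, 25565893 to 25570686, minus strand), a partner of Sox9 at ureteric tips, was under 1 FPKM in every library and so was not among the tested genes. It was at 0.5, 0.91 and 0.45 FPKM in wild type and at 0.41, 0.21 and 0.31 FPKM in NICD2. The groups did not overlap, but these values stand for an estimated 10 to 44 fragments per library. On the opposite strand 2810468N07Rik shares 329 exonic bases with Sox8. The difference of mean log2(FPKM + 1) was -0.30 (two-sided exact permutation test, p = 0.1, the smallest that 3 against 3 allows). With a pseudocount of 0.1 it was -0.79, and without wild type replicate 2, the highest, -0.17.

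Of 6 tested matrix genes known as SoxE targets in cartilage, 2 rose and none fell, with a median of -0.03. All 6 had an unadjusted limma p under 0.05, against 25.1% of all tested genes. Of the 6 estimates, 3 were below 0, among them that of Col2a1 at -0.42. Col27a1 was at 13.2 ± 1.13 and 23 ± 0.957 FPKM and Col11a1 at 2.19 ± 0.327 and 3.78 ± 0.641 FPKM (limma adjusted p = 5.72e-04 and 0.0261). Leaving out wild type replicate 1, wild type replicate 2, NICD2 replicate 2 or NICD2 replicate 3 left 1 called, as did using no filter on low values. Col2a1, the main cartilage collagen, was at 3.58 ± 0.626 and 2.42 ± 0.207 FPKM (adjusted p = 0.0618). The defining cartilage gene Acan was at 0.07 ± 0.0265 and 0.0667 ± 0.0473 FPKM.

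Of 11 tested genes of the Ret axis, the signalling that drives ureteric branching, 1 rose and 1 fell, with a median of -0.13. Gfra1, the GDNF co-receptor, fell from 16.6 ± 1.21 to 9.68 ± 1.34 FPKM (limma adjusted p = 0.00361). The chemokine receptor Cxcr4 rose from 5.27 ± 0.543 to 8.89 ± 0.838 FPKM (adjusted p = 0.00415). Without wild type replicate 1 the list had 2 genes higher, and without NICD2 replicate 1 it had 2 lower. Etv4, a transcription factor induced by Ret, was at 7.38 ± 0.45 FPKM in wild type and 5.68 ± 0.764 in NICD2 (adjusted p = 0.072). Etv5, its paralog, measured 11.1 ± 0.69 and 8.98 ± 0.926 FPKM (adjusted p = 0.0867). Wnt11, the tip ligand, was at 13.2 ± 2.75 and 19.1 ± 2.44 FPKM (adjusted p = 0.063). Ret itself was at 0.59 ± 0.111 and 0.457 ± 0.0252 FPKM. The ureteric tip list, which shares Gfra1 and others with the Ret axis, had 1 gene higher, Ros1, and 1 lower of 5 tested, with a median of -0.28. It had 2 higher without wild type replicate 1 and 2 lower without NICD2 replicate 1. Its summed level was 49.9 to 53.3 FPKM in wild type and 48 to 50.2 FPKM in NICD2.

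Tubule injury markers, among which Sox9 is often counted, had 7 of 12 tested genes higher and none lower, with a median of 0.65. Krt19, a keratin of duct epithelium, rose from 21.1 ± 7.03 to 77 ± 17.9 FPKM, and Krt8 from 91.4 ± 5.31 to 197 ± 26.5 FPKM (limma adjusted p = 0.00157 and 3.86e-04). Osteopontin (Spp1) rose from 311 ± 13.2 to 734 ± 176 FPKM (adjusted p = 0.00166). Havcr1, the marker of damaged proximal tubule, was at 0.417 ± 0.136 and 0.97 ± 0.529 FPKM and was not among the tested genes. Vim, an intermediate filament gene of dedifferentiated cells, was at 274 ± 23.1 and 271 ± 17.5 FPKM (adjusted p = 0.941). The list's summed level was 1357 to 1438 FPKM in wild type and 1951 to 2487 FPKM in NICD2, beside the higher mean of Sox9, and its part in that mean was not tested.

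**Figure D3:**
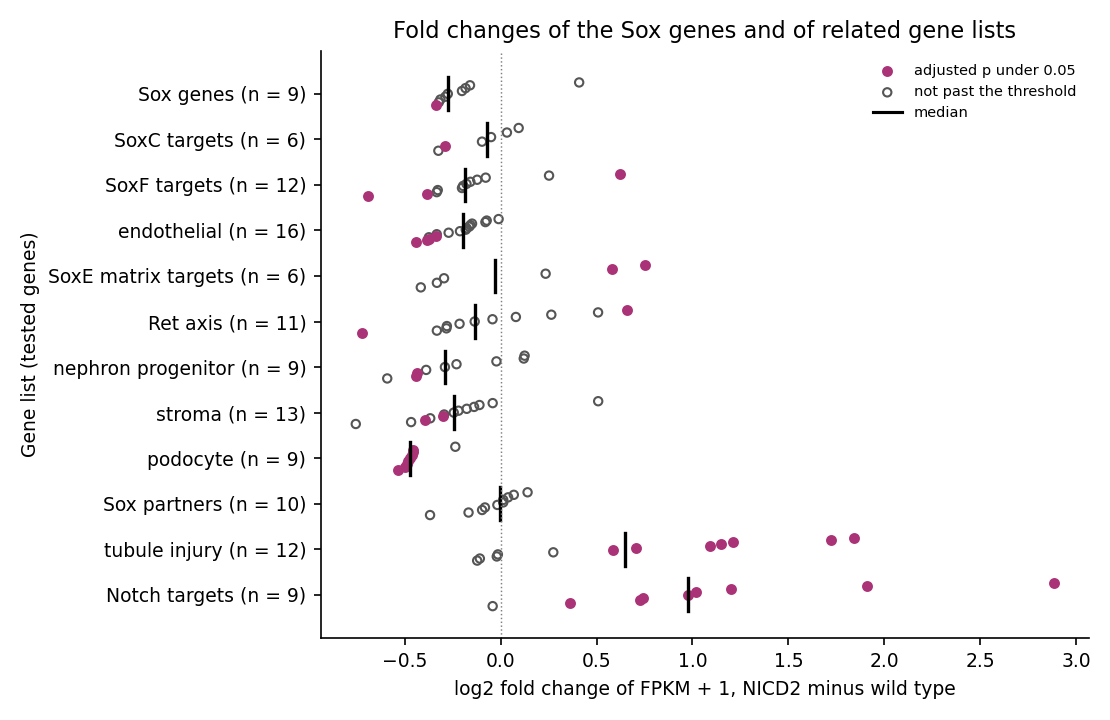
The log2 fold change of FPKM + 1, NICD2 minus wild type, of each tested gene (points) in the Sox set and in 11 gene lists, with medians as bars and genes past the threshold filled. The Sox median is -0.27, the podocyte median -0.47, the endothelial median -0.20 and the Notch target median 0.98.

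SoxF genes act in endothelial cells, Sox17 mainly in arteries and Sox18 in vessels and lymphatics. Sox18 (gene 20672, chromosome 2, 181669837 to 181671640, minus strand) was at 28.7, 27.8 and 23.7 FPKM in wild type and at 21.3, 24.35 and 23.6 FPKM in NICD2. The groups overlapped, since wild type replicate 3 was below NICD2 replicate 2. NICD2 differed from wild type in log2 by -0.20 ± 0.09 (95% interval -0.40 to -0.0007, limma adjusted p = 0.198).

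Sox17 (gene 20671, chromosome 1, 4490928 to 4497386, minus strand) was at 12.9, 11.1 and 10.5 FPKM in wild type and at 7.36, 10.1 and 9.6 FPKM in NICD2. The groups did not overlap, though NICD2 replicate 2 was close to the lowest wild type library and NICD2 replicate 1 was far below the rest. Its log2 fold change was -0.32 ± 0.12 (95% interval -0.60 to -0.05, limma adjusted p = 0.138), and -0.20 without NICD2 replicate 1. Gm37587, on the opposite strand, shares 804 exonic bases with Sox17, and reads from those bases cannot be told apart without strand. Sox18 stood at 2.23 to 2.5 times Sox17 in wild type and at 2.4 to 2.89 times in NICD2. Sox7, the third SoxF gene and no member of the set, was at 4.22 ± 0.458 and 3.65 ± 0.316 FPKM (adjusted p = 0.342).

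Of 16 endothelial markers, all tested, 4 fell, 0 rose, and all 16 estimates were below 0, with a median of -0.20. Among all tested genes 51.8% of estimates were below 0. Emcn, a surface sialomucin, fell from 93.1 ± 4.98 to 68.3 ± 2.66 FPKM, and the angiopoietin receptor Tek from 22.1 ± 1.54 to 17.3 ± 1.25 FPKM (limma adjusted p = 0.00437 and 0.031). Egfl7, an endothelial secreted factor, and Tie1, a receptor, were the other two. The count was 1 without wild type replicate 2 or NICD2 replicate 1, and 2 without wild type replicate 1, wild type replicate 3 or NICD2 replicate 3. With no filter on low values, and without both low-adrenal libraries, 1 was called. Pecam1, a junction gene that defines endothelium, was at 61 ± 3.62 FPKM in wild type and 52.5 ± 2.6 FPKM in NICD2 (adjusted p = 0.0952). Cdh5, which encodes VE-cadherin, measured 49.8 ± 3.97 and 44.5 ± 2.93 FPKM (adjusted p = 0.252). The summed level of the list was 611 to 693 FPKM in wild type and 529 to 570 FPKM in NICD2, lower beside Sox17 and Sox18, and its part in their values was not tested.

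Of 12 tested genes listed as SoxF targets, 1 rose and 2 fell, with a median of -0.19. The receptor Notch1, which is also expressed outside vessels, rose from 16.3 ± 0.677 to 25.7 ± 2.81 FPKM (limma adjusted p = 0.00325). Prox1, the lymphatic regulator that Sox18 switches on, fell from 2.12 ± 0.11 to 0.94 ± 0.262 FPKM (adjusted p = 0.0111), and Egfl7, also an endothelial marker, fell too. The lower count was 1 when any 1 of the wild type libraries, NICD2 replicate 1 or NICD2 replicate 3 was left out, 1 with no filter on low values and 0 without both low-adrenal libraries. The arterial ligand Dll4, a known Sox17 target, was at 6.38 ± 0.471 and 5.44 ± 0.191 FPKM (adjusted p = 0.164). Of 4 tested lymphatic markers 2 fell, Prox1 and Pdpn, and 0 rose (median -0.15), and 1 was called whichever library was left out, and 0 without both low-adrenal libraries. Pdpn, which podocytes express as well, was at 20.8 ± 0.361 and 17.2 ± 0.144 FPKM. Lyve1, the hyaluronan receptor of lymphatic vessels, was at 1.75 ± 0.579 and 2.28 ± 0.397 FPKM (adjusted p = 0.372). The list's summed level was 31.9 to 45 FPKM in wild type and 26.2 to 47.6 FPKM in NICD2.

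SoxD proteins form dimers with each other and adjust the action of other Sox factors. Sox13 (gene 20668, chromosome 1, 133382300 to 133424212, minus strand) was the highest of them, at 20.7, 19.99 and 18.3 FPKM in wild type and at 16.8, 19.3 and 16.4 FPKM in NICD2. The groups overlapped through NICD2 replicate 2. On the log2 scale the difference was -0.16 ± 0.08 (95% interval -0.35 to 0.03, limma adjusted p = 0.268), the smallest in size of the 9.

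Sox6 (gene 20679, chromosome 7, 115470872 to 116041138, minus strand) was at 4.23, 5.12 and 5.33 FPKM in wild type and at 3.5, 3.76 and 4.34 FPKM in NICD2. NICD2 replicate 3 exceeded wild type replicate 1, so the groups overlapped. limma gave a log2 fold change of -0.27 ± 0.11 (95% interval -0.52 to -0.03, limma adjusted p = 0.147).

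Sox5 (gene 20678) lies on chromosome 6, 143828425 to 144782287 on the minus strand in RefSeq, since the deposited table gives it a scaffold in place of a chromosome. It was at 2.43, 2.85 and 2.69 FPKM in wild type and at 2.18, 2.12 and 2.36 FPKM in NICD2. The groups did not overlap, by a narrow gap. The estimate on the log2 scale was -0.18 ± 0.09 (95% interval -0.40 to 0.03, limma adjusted p = 0.267). Sox6 stood at 1.74 to 1.98 times Sox5 in wild type and at 1.61 to 1.84 times in NICD2. The table lists 39 transcripts for Sox5 and 47 for Sox6, against 1 for Sox12, and the sources used here do not say how fragments were assigned to them. On the opposite strand, Sox5os1 shares 1330 exonic bases with Sox5, and reads from those bases cannot be told apart without strand.

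Of 5 tested genes of juxtaglomerular renin cells, where Sox6 is known to act, none was called by limma and 1 had an unadjusted p under 0.05, with a median of -0.08. Renin (Ren1) was at 121 ± 29.8 and 157 ± 24.8 FPKM (adjusted p = 0.209). Its groups overlapped, and its estimate was 0.39, opposite in sign to that of Sox6. Of the 5 estimates, 3 were below 0, as that of Sox6 was. The gene with an unadjusted p under 0.05 was Gja4, at 11.95 ± 0.889 and 9.34 ± 0.969 FPKM (limma adjusted p = 0.0614). The summed level of the 5 listed genes was 217 to 283 FPKM in wild type and 266 to 315 FPKM in NICD2.

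Stromal genes had 2 of 13 tested members lower and none higher, with a median of -0.24. These were Meis2, at 50 ± 1.9 and 40.5 ± 2.13 FPKM, and Foxd1, the stromal progenitor regulator, at 4.85 ± 0.402 and 3.44 ± 0.126 FPKM (limma adjusted p = 0.0235 and 0.025). The count of lower genes was 0 without wild type replicate 2 or NICD2 replicate 1, and 1 without wild type replicate 1, wild type replicate 3 or NICD2 replicate 2. Without NICD2 replicate 3, 1 gene was called higher. The lower count was 1 with no filter on low values and 0 without both low-adrenal libraries. The summed level was 1392 to 1586 FPKM in wild type and 1353 to 1644 FPKM in NICD2, so the groups overlapped.

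Partners of Sox proteins had estimates on both sides of 0. Of 10 tested, among them TCF factors, beta-catenin (Ctnnb1) and Rbpj, limma called none, and 1 had an unadjusted p under 0.05, with a median of -0.00. That was Tcf7l1, with a log2 fold change of -0.37, at 35.3 ± 3.75 and 27.1 ± 2.81 FPKM (adjusted p = 0.0547). It passed with a filter of mean 5 FPKM, upper-quartile scaling or the robust option. Rbpj was at 18.3 ± 1.49 and 18.1 ± 0.42 FPKM (adjusted p = 0.919).

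Of the other Sox rows, Sox10, a gene of glia and neural crest, was at 0.593 ± 0.307 and 0.433 ± 0.0551 FPKM. Sox30, known from the testis, and Sox15 were at 0.18 to 0.38 and at 0.06 to 0.4 FPKM over the 6 libraries. Sox2 was at 0.05 to 0.2 FPKM, Sox3 at up to 0.12 FPKM, and Sox1 and Sox21 at up to 0.03 and 0.05 FPKM. Sox14 had no FPKM in the table. Sox10 and the others named here with FPKM had an estimated 38 fragments or fewer in each library. Counting error is large at such numbers, and none passed the filter on low values, so a difference was not tested. Of 3 tested glial and neural crest markers limma called none, and 1 had an unadjusted p under 0.05, with a median of 0.10.

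Within each genotype, 4 of the 10 members had their lowest value in the low-adrenal library. Sox4, Sox12, Sox17 and Sox18 were lowest in wild type replicate 3 and in NICD2 replicate 1. So were 12.8% of all tested genes. Sox11, Sox6 and Sox9 instead had their highest wild type value in replicate 3, at 12.9, 5.33 and 3.98 FPKM. Relative to the wild type mean, Sox17 was at 0.911 in wild type replicate 3 and at 0.641 in NICD2 replicate 1, and Sox4 at 0.916 and 0.707. Each genotype had 1 low-adrenal library, so this pattern rests on 1 library in each. With the adrenal level as a term, added after seeing the data, Sox4 passed the threshold (log2 fold change -0.27 ± 0.06, limma adjusted p = 0.0405) and Sox12 did too (adjusted p = 0.0192), and Sox17 was at -0.30 ± 0.08 (adjusted p = 0.0638). Without both of those libraries, no member was called, and Sox12 was at -0.35 ± 0.09 (adjusted p = 0.0924, 2 against 2 libraries).

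**Figure D4:**
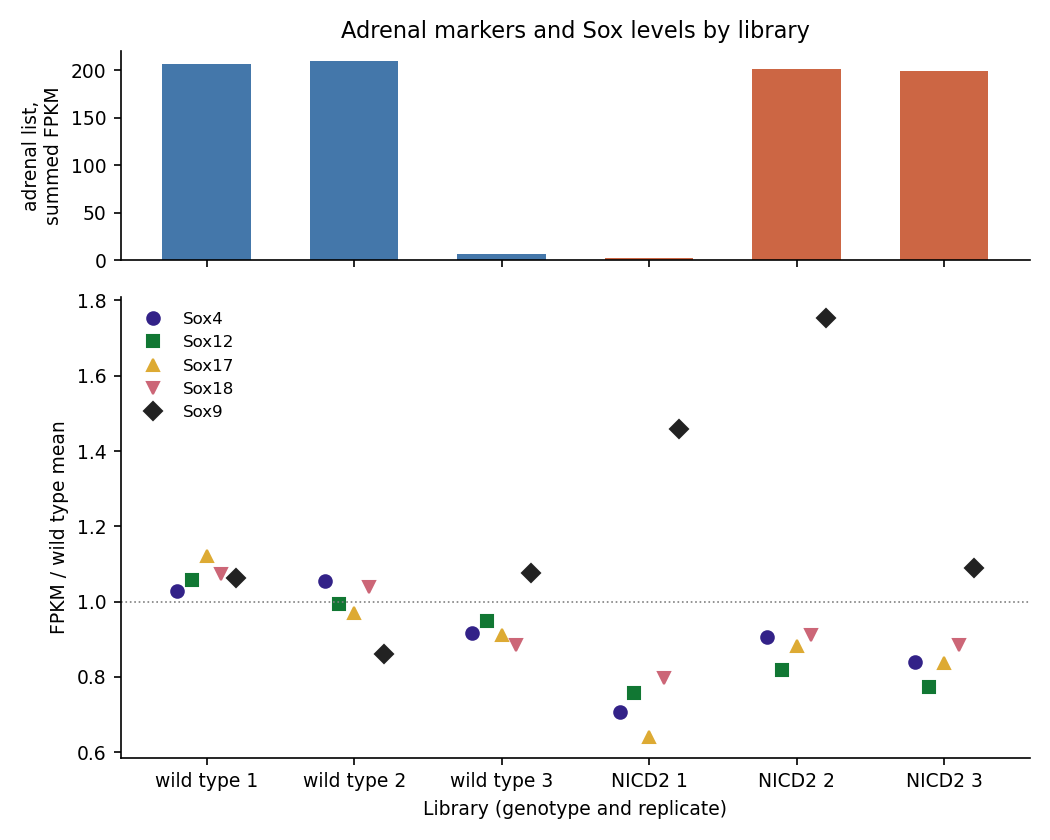
Summed FPKM of 11 adrenal markers (bars, top) and FPKM of 5 Sox genes relative to their wild type mean (points, bottom) in each library. Wild type 3 and NICD2 1 have adrenal sums of 6.33 and 2.54 FPKM, and they hold the lowest values of Sox4, Sox12, Sox17 and Sox18 in their groups, while Sox9 is lowest in wild type 2 and NICD2 3.

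The genes whose pattern was most like that of Sox12 over the 6 libraries of both genotypes were Nr2f1, a nuclear receptor gene, a gene without an assigned name, and Iqsec2, each with a Pearson r of 0.998 (0.9977, 0.9976 and 0.9975). Nr2f1 was at 12.8 ± 0.765 and 9.02 ± 0.618 FPKM and Iqsec2 at 8.32 ± 0.451 and 6.48 ± 0.353 FPKM. All are lower in NICD2 with little spread, which is what such a likeness over 2 groups picks out.

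The authors' deposited table gives its own comparison of the groups by DEGseq. It has a q under 0.05 for all 10 Sox genes, and for 48.9% of the 18725 genes it compares. In the authors' deposited table Sox12 has a log2 fold change of -0.35 (q = 4.78e-35), Sox9 of 0.52 (q = 1.76e-13) and Sox8 of -1.002 (q = 1.84e-04). The signs are those found here from the same libraries, so they are no independent check. Of the 9 that passed the filter on low values, limma, which uses the spread between libraries, called only Sox12.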

How the data were processed

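Per the labels' protocols, RNA from flash-frozen kidneys was extracted with Trizol, and 1 ug of it went into each TruSeq (Illumina) library. The 1 deposited table holds FPKM per sample and group means of FPKM computed by the authors, per the file headers. The authors' DEGseq comparison in it gives each gene a log2 ratio, a q-value and a p-value, per the file headers. Bowtie 0.12.2 is named with build mm8, per the submitters' processing notes, while the table's chromosome accessions and positions are those of GRCm38. How strand and reads shared between similar genes were treated is not given in these sources. Of 23669 rows, 4010 held no FPKM and were left out, and 1 symbol on more than 1 row kept the row of highest mean. The table's 27 columns on pairs of samples were left unused.

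Groups and replicate numbers came from the labels. log2(FPKM + 1) of all 6 libraries was compared in limma 3.58.1 under R 4.3.3, two-sided, letting the prior variance follow the mean. This step was tested on simulated data. Depth was estimated as the library size that made most low values of short genes whole, with 115 bases taken off each transcript length. Of these values 78.5% to 81.5% lay within 0.15 fragments of a whole number, where 30.0% do by chance. The 30.0% holds for a depth fixed beforehand, whereas the depth and the 115 bases were picked for the highest share. The estimate covers counting error only and leaves genes under 1 FPKM imprecise.

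The members and the 20 gene lists were chosen with earlier results of these data known. Named genes were the members, the other Sox rows, up to 4 genes of each list with the smallest p and the defining markers a result turns on, Notch2, Nrarp and Heyl, and the 3 genes most like each called member. Other genes named (Ezh2, Etv5, Vim, Dll4, Rbpj, Crym, Tmem100, Itga8, Dtx1, Notch3, Hes1, Id4 and the Y-linked genes) were chosen after their values were seen. Of the alternatives 13 were fixed at the start, and 2, the adrenal term and leaving out both low-adrenal libraries, were chosen after seeing the data. Count models and count normalizations could not be run on FPKM. Tables came from pandas 2.3.3, the exact test from scipy 1.17.1 and figures from matplotlib 3.10.9, in Python 3.11.15.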

Additional observations from a re-analysis of the deposited data

How the results depend on the processing

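No Sox gene changed sign under any alternative that could test it. Of the 9 tested members, 5 (Sox5, Sox6, Sox13, Sox17, Sox18) were not called under any, while Sox12 was called under 11 of 15, Sox11 under 4, and Sox4 and Sox9 under 1 each. The count of members called was 2 with a filter of mean 5 FPKM, with upper-quartile scaling, with the robust option and with the adrenal term, 0 without both low-adrenal libraries, and 0 to 1 when each library was left out in turn. The strict filter left Sox5, Sox6 and Sox9 untested. Over all genes 679 were called higher and 531 lower, against 377 to 568 and 215 to 391 with 1 library left out, and 296 and 173 without both low-adrenal libraries. These counts were 388 and 215 with wild type replicate 2 left out, 448 and 305 with wild type replicate 3 left out, and 377 and 289 with NICD2 replicate 1 left out, and 411 genes were higher with NICD2 replicate 2 left out. Of the genes in the lists 40 were called, and 26 to 37 with 1 library left out, the fewest without wild type replicate 2. Same-numbered libraries did not deviate together (correlations of -0.03, 0.06 and -0.05). Differently numbered pairs ranged from -0.25 to 0.25, the highest for wild type replicate 3 with NICD2 replicate 1. With 3 libraries per group these values cannot decide whether samples were paired. The replicate block gave 1 member called (Sox12, limma adjusted p = 0.0397), 616 genes higher and 439 lower, and 37 list genes. With that block the endothelial genes called lower went from 4 to 1, the SoxF target, lymphatic and stromal genes called lower from 2 to 1 each, and the Sox partners called lower from 0 to 1. With the robust option 1 SoxE matrix gene and 1 juxtaglomerular gene were called lower, the latter also with the adrenal term. With the adrenal term 2 Ret axis and 2 ureteric tip genes were called higher. The filter of mean 5 FPKM left 1 SoxE matrix gene called higher, 0 ureteric tip genes higher, and 1 SoxF target and 1 lymphatic gene lower. Depth limits Sox8 and the other Sox genes under 1 FPKM.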

Other observations

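Podocyte markers had 8 of 9 tested genes lower and none higher in NICD2, with a median log2 fold change of -0.47. Without both low-adrenal libraries 4 were called.

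Other cells that the dissected tissue could hold gave no calls in limma with all 6 libraries and no further term. Of 6 tested leukocyte genes 0 had an unadjusted p under 0.05, and their summed level was 41.5 to 62.7 FPKM in wild type and 54.6 to 69.9 FPKM in NICD2. With the replicate block 1 leukocyte gene was called higher. Of 4 red cell genes 1 did, Slc4a1 at 6.59 ± 0.652 and 3.06 ± 1.62 FPKM (adjusted p = 0.0547), and 1 was called without NICD2 replicate 1 or 3, without both low-adrenal libraries and with the adrenal term. Of 5 muscle, fat and cartilage genes 3 did, among them the fat gene Adipoq at 7.69 ± 2.75 and 4.01 ± 1.28 FPKM (adjusted p = 0.082), and 1 was called without NICD2 replicate 3 and with the robust option.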
